A study of Mus musculus with 6 samples.

Results

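The genes described here are 10 members of the transient receptor potential (TRP) family of cation channels, Trpm7, Trpm6, Trpm4, Trpc1, Trpv2, Trpv4, Trpv6, Pkd1, Pkd2 and Mcoln1. They were chosen by name, and all 10 were found among the 18512 entries of the count table. TRP channels are membrane proteins that let sodium, calcium or magnesium into the cytoplasm, and they open in response to lipids, stretch, temperature, ligands or changes in calcium inside the cell. In epithelia they take part in calcium and magnesium uptake, in the sensing of volume and flow, and in ion handling by the primary cilium and the lysosome. The drug 2APB is used as a blocker of store-operated calcium entry, but it also blocks TRPM7 and TRPC channels and can open TRPV2.

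NMuMG cells, an epithelial line derived from mouse mammary gland, were studied in 3 groups of 2 libraries each. The DMSO group received the solvent alone, the TGF-β group received TGF-β (5 ng/ml), a cytokine that drives the transition of epithelial cells toward a mesenchymal state, and the TGF-β+2APB group received this dose of TGF-β with 2APB (50 uM). Cells of the study were starved of serum for 4 h and treated for 24 h, although the methods of the study put 2APB for 24 h ahead of TGF-β, so the time of 2APB exposure is uncertain. No group received 2APB alone, so that an effect of 2APB on its own and an effect on the response to TGF-β cannot be told apart. Library totals ran from 71840570 to 79473182 counts. Sampling error weighed most on Trpv2 and Trpv6, the genes with the fewest counts, and on Trpv4 under DMSO and TGF-β, where its counts were the next lowest.

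The labelled cell type was checked by its marker genes. Under DMSO the hepatocyte markers summed far above those of mammary luminal cells and of mammary basal cells (27.5 and 16.5). The markers used here thus do not bear out the mammary label, and the reason was not tested. The summed normalized count of 5 epithelial markers was 517661 and 486196 under DMSO, 812422 and 693850 under TGF-β, and 1372888 and 1304569 under TGF-β+2APB, and Krt8 was the most abundant. Krt8 and Krt18 carried this sum, whereas Cdh1 was lower than DMSO with TGF-β (log2 -0.78, edgeR FDR 0.0055) and with TGF-β+2APB (-1.26, FDR 0.00068), as was Epcam (-1.42, FDR 0.0141, and -0.97, FDR 0.0380). Epcam, Cldn7 and Cldn3 were weak or absent, as Epcam had at most 158 counts, Cldn7 at most 6 and Cldn3 no entry. Markers of mammary luminal cells were low, and Csn2 was absent from the table. The 4 present summed to 74.7 and 53.7 under DMSO, 162 and 172 under TGF-β, and 188 and 183 under TGF-β+2APB. Gata3, the most abundant, carried the rise of this sum. It was higher than DMSO with TGF-β (log2 2.28, edgeR FDR 0.0012) and with TGF-β+2APB (2.34, FDR 0.00070). Elf5, Prlr and Esr1 were too low for a test. Elf5 had 18 and 8 counts under DMSO, 4 and 2 under TGF-β, and 6 and 16 under TGF-β+2APB. Prlr had 22 and 14, 2 and 16, and 12 and 12 in the same order, and Esr1 had at most 8 in any library. Of 4 basal markers, Krt5 did not exceed 2 counts and Krt14 did not exceed 4 in any library. Trp63 was highest under DMSO, with 6 and 4 counts against 4 and 0 under TGF-β and 0 and 2 under TGF-β+2APB. The most abundant was Acta2, which was higher than DMSO with TGF-β (2.36, FDR 0.0169) and with TGF-β+2APB (2.56, FDR 0.0097). The 5 hepatocyte markers summed to 68808 and 61718 under DMSO, 1539 and 1071 under TGF-β, and 616 and 785 under TGF-β+2APB, with Alb the most abundant under DMSO and Afp in the 4 treated libraries. The sum of the 4 fibroblast markers present went from 90.4 and 90.9 under DMSO to 738 and 635 under TGF-β and 1045 and 902 under TGF-β+2APB, with Pdgfra the most abundant under DMSO and Pdgfrb in the treated libraries, but Dcn did not exceed 4 counts in any library and Pdgfra was not called between TGF-β and DMSO (FDR 0.431). The 3 endothelial markers summed to at most 49.3, with Pecam1 the most abundant over the 6 libraries together. Cdh5 went from 0 and 2 counts under DMSO to 8 and 14 under TGF-β and 18 and 22 under TGF-β+2APB, and Kdr did not exceed 2 counts in any library. The part of these marker changes in the results on TRP genes was not tested. In these bulk libraries, fewer cells that express a gene and less of its RNA per cell cannot be told apart.

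Trpm6, Trpv4 and Pkd1 rose and Trpm4 fell with TGF-β. When 2APB was given as well, Trpv4 rose far above both other groups, Trpm4 was lower again, and Trpm6 lay between the DMSO and TGF-β levels. Counts were compared by edgeR's quasi-likelihood test, with a false discovery rate (FDR) of 0.05 or less over 13353 genes as the threshold for a call. Between TGF-β and DMSO, 4 of the 9 genes tested were called, 3 of them higher and 1 lower, where 41.5% of all genes were called, 21.8% higher and 19.7% lower. Between TGF-β+2APB and DMSO, 5 were called, 4 higher and 1 lower, against 52.8% of all genes, 25.6% higher and 27.2% lower. Between TGF-β+2APB and TGF-β, 3 were called, 1 higher and 2 lower, against 17.5% of all genes, 6.58% higher and 10.9% lower. In both comparisons with DMSO the share of the 9 genes was thus near that of all genes, and the comparisons share libraries. The groups did not overlap for 6, 8 and 6 of the 9 genes in the same order, where this held for 72.5%, 86% and 58% of all genes. The 8 and the last 6 include Trpv2, whose TGF-β+2APB replicate 1 lay just above TGF-β replicate 2, at 21.8 against 20.8 normalized counts. The median log2 fold change over the 9 genes was 0.23, 0.43 and 0.08, and over all genes tested it was -0.01, -0.00 and -0.00.

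**Figure D1:**
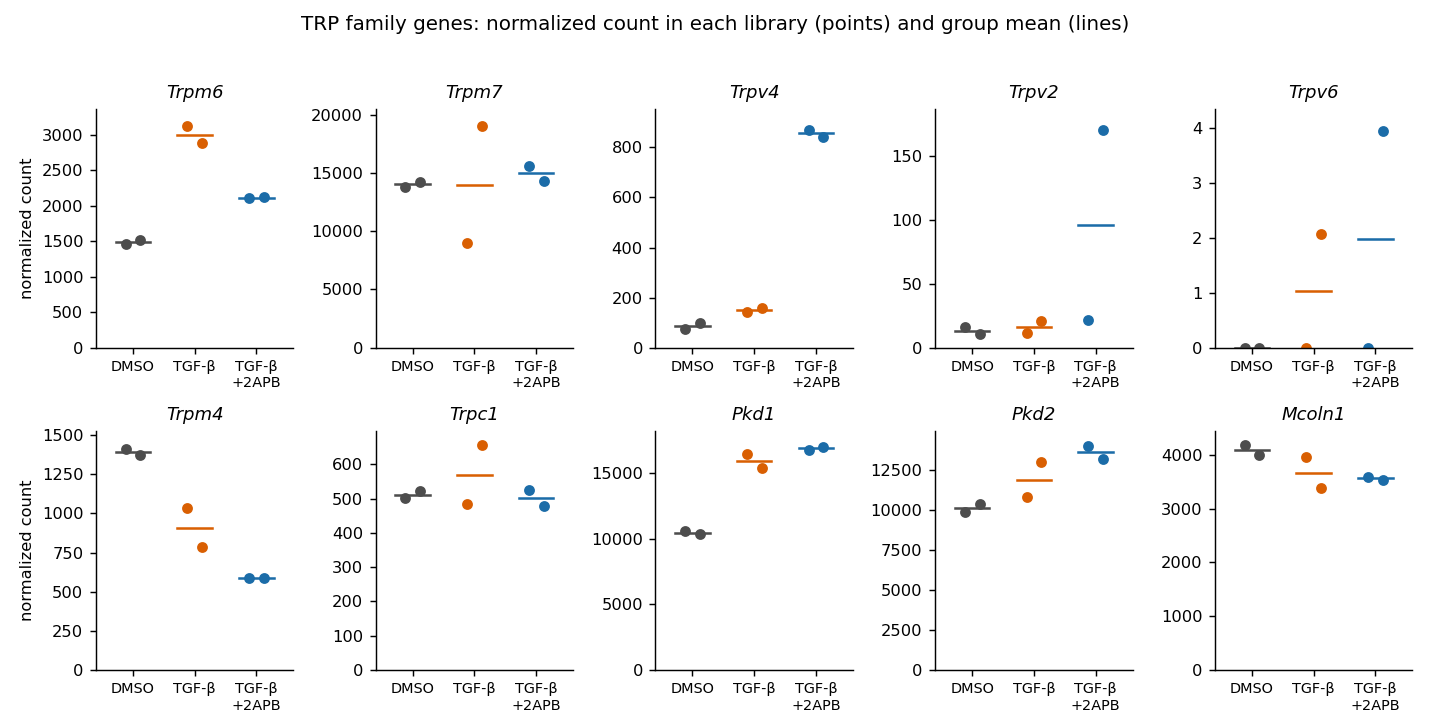
Normalized counts (vertical axis, from 0, with its own scale for each gene) of the 10 TRP genes in DMSO, TGF-β and TGF-β+2APB, with 1 point per library and a line at the mean of the 2 libraries. Trpv4 stood at 869 and 842 with TGF-β+2APB against 74.7 to 159.8 elsewhere, and the 2 TGF-β libraries of Trpm7 lay apart at 8945 and 19029.

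Trpm7 and Trpm6 are channels for magnesium and calcium that carry a protein kinase at their end. Trpm7 (chr2:126791565-126876230, minus strand) is made in nearly all cells, and 2APB blocks its current. Its normalized counts were 13827 and 14262 under DMSO, 8945 and 19029 under TGF-β, and 15621 and 14336 under TGF-β+2APB. The TGF-β libraries lay below and above all 4 others, so that this group overlapped both of the other groups. No change of Trpm7 was called, as its log2 fold changes (± SE) were -0.01 ± 0.33 (edgeR FDR 0.991) for TGF-β against DMSO, 0.09 ± 0.33 (FDR 0.832) for TGF-β+2APB against DMSO, and 0.10 ± 0.33 (FDR 0.860) for TGF-β+2APB against TGF-β. This mean hid opposite values of single libraries. Against DMSO, the log2 fold change was 0.44 (FDR 0.0073) without TGF-β replicate 1 and -0.65 (FDR 0.0016) without TGF-β replicate 2, in a range of FDR from 0.0016 to 1 over 16 alternatives. For TGF-β+2APB against TGF-β it was -0.34 (FDR 0.031) and 0.74 (FDR 0.0030) without the same libraries, in a range from 0.0030 to 0.993. Between the 2 TGF-β libraries Trpm7 differed by -1.09 on the log2 scale, and the 500 tested genes nearest to it in GC content (40.1% in Trpm7) differed by a median of -0.48 with an SD of 0.675. With a correction for GC content, chosen after seeing the data, the log2 fold change of Trpm7 between TGF-β and DMSO was 0.17 (FDR 0.443).

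Trpm6 (chr19:18749983-18892511, plus strand) is best known for magnesium uptake in kidney and intestine. It had normalized counts of 1464 and 1514 under DMSO, 3121 and 2882 under TGF-β, and 2101 and 2117 under TGF-β+2APB. The 3 groups did not overlap, and the libraries with both agents lay between those of the other groups. Trpm6 rose 2.02-fold with TGF-β, by 1.01 ± 0.08 on the log2 scale (edgeR FDR 0.00037), and stayed 0.50 ± 0.08 above DMSO when 2APB was added (FDR 0.0028). Both calls held in 16 of 16 alternatives. Between TGF-β+2APB and TGF-β, Trpm6 fell by 0.51 ± 0.08 (FDR 0.0118), a call that was kept in 11 of 16 alternatives (FDR up to 0.0896). It was lost, among others, without either DMSO library (FDR 0.054 and 0.055), which enter this comparison only through the shared spread, and without TGF-β+2APB replicate 1 or replicate 2 (FDR 0.090 and 0.084), while the log2 fold change ranged from -0.57 to -0.45.

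Of 18 other genes of magnesium transport, 15 were tested. Compared with DMSO, 5 rose and 3 fell with TGF-β and 6 rose and 3 fell with TGF-β+2APB, and 2 rose and 1 fell when TGF-β+2APB was set against TGF-β. Their median log2 fold changes were 0.03, 0.03 and 0.00, and 41.5%, 52.8% and 17.5% of all genes were called. Cnnm4, a basolateral magnesium transporter, stood out with deposited counts of 910 and 1046 under DMSO, 6412 and 5968 under TGF-β, and 10468 and 9716 under TGF-β+2APB. Its 3 groups did not overlap, and it rose by 2.66 ± 0.11 with TGF-β (log2, edgeR FDR 7.9e-05), by 3.34 ± 0.12 with TGF-β+2APB against DMSO (FDR 2.7e-05) and by 0.68 ± 0.11 from TGF-β to TGF-β+2APB (FDR 0.0138). Its relative Cnnm2 fell with TGF-β (log2 -0.88, FDR 0.0068). Nipal3 fell with TGF-β (-0.77, FDR 0.0201) and with TGF-β+2APB (-1.14, FDR 0.0037). Nipal1 was higher with TGF-β+2APB than with DMSO (1.92, FDR 0.0030) or TGF-β (1.21, FDR 0.0407), and Tusc3 was lower than with TGF-β (-0.33, FDR 0.0340).

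Trpm4 (chr7:45302632-45333780, minus strand) codes for a channel that calcium opens but that carries sodium and potassium, and so depolarizes the membrane. Its normalized counts were 1413 and 1376 under DMSO, 1032 and 786 under TGF-β, and 588 and 584 under TGF-β+2APB. The groups did not overlap, and the level was stepwise lower from DMSO to TGF-β and from TGF-β to TGF-β+2APB. Trpm4 fell by 0.62 ± 0.14 on the log2 scale with TGF-β (edgeR FDR 0.0185) and fell by 1.25 ± 0.15 with TGF-β+2APB against DMSO (FDR 0.0010), a 2.38-fold lower level. The second of these calls held in 16 of 16 alternatives. The first held in 14 of 16 (FDR from 0.0015 to 0.109) and was lost without DMSO replicate 1 (FDR 0.109) or replicate 2 (FDR 0.090). The further fall of 0.63 ± 0.14 from TGF-β to TGF-β+2APB (FDR 0.0362) held in 9 of 16 alternatives (FDR from 0.0032 to 0.150). It was lost, among others, without DMSO replicate 1 or 2 (FDR 0.100 and 0.101) and without TGF-β+2APB replicate 1 or 2 (FDR 0.150 and 0.146), and the log2 fold change over the alternatives was -0.82 to -0.42.

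Trpc1 (chr9:95705082-95750375, minus strand) codes for a subunit of receptor- and store-operated cation channels. Its normalized counts were 501 and 523 under DMSO, 483 and 656 under TGF-β, and 527 and 477 under TGF-β+2APB. All groups overlapped, with TGF-β replicate 2 the highest library. The log2 fold change was 0.15 for TGF-β against DMSO (edgeR FDR 0.518), -0.03 for TGF-β+2APB against DMSO (FDR 0.905) and -0.18 for TGF-β+2APB against TGF-β (FDR 0.509), and no alternative gave a call. Its sign changed in each comparison when single libraries were left out, to -0.084 without TGF-β replicate 2, to 0.062 without TGF-β+2APB replicate 2 and to 0.056 without TGF-β replicate 2.

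Phospholipase C enzymes act ahead of TRPC channels, and 9 of 12 such genes were tested. Relative to DMSO, 2 rose and 2 fell with TGF-β and 2 rose and 4 fell with TGF-β+2APB, and relative to TGF-β the 3 genes called with TGF-β+2APB all fell. The medians were -0.28, -0.54 and -0.14, and 41.5%, 52.8% and 17.5% of all genes were called. For TGF-β against DMSO, DESeq2 called 7 of the 9 where edgeR called 4. Plcb1 had deposited counts of 570 and 576 under DMSO, 180 and 242 under TGF-β, and 42 and 54 under TGF-β+2APB, with log2 fold changes of -1.44 ± 0.23 for TGF-β against DMSO (edgeR FDR 0.0052), -3.60 ± 0.26 for TGF-β+2APB against DMSO (FDR 0.00019) and -2.16 ± 0.25 for TGF-β+2APB against TGF-β (FDR 0.0066). Its groups formed a descending order without overlap, like those of Trpm4. Plcg2 rose with TGF-β (log2 1.09, FDR 0.0020) and with TGF-β+2APB (1.51, FDR 0.00040). Plcd1 fell with TGF-β (-1.39, FDR 0.0469). Plce1 was lower with TGF-β+2APB than with DMSO (-1.75, FDR 0.0011) or TGF-β (-1.24, FDR 0.0161), and Plch1 was lower than with TGF-β (-1.01, FDR 0.0031).

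Among 12 partners of TRPC and store-operated channels, 11 were tested. In the same order of comparisons, 7 were higher and 1 lower, 6 were higher and 2 lower, and 1 was higher and 4 lower, with medians of 0.55, 0.74 and -0.07. Among all genes, 21.8% were higher and 19.7% lower, 25.6% and 27.2%, and 6.58% and 10.9%. Cav1, the caveolin that binds TRPC1, had deposited counts of 3116 and 2976, 11936 and 11720, and 7574 and 7890 in DMSO, TGF-β and TGF-β+2APB. Like Trpm6 it was highest with TGF-β and intermediate with both agents. It rose by 1.95 ± 0.07 with TGF-β (log2, edgeR FDR 5.2e-05), was 1.32 ± 0.07 above DMSO with TGF-β+2APB (FDR 7.7e-05) and fell by 0.64 ± 0.07 between TGF-β and TGF-β+2APB (FDR 0.0058). Of the inositol trisphosphate receptors, which release calcium from the endoplasmic reticulum, Itpr2 rose with TGF-β (1.24, FDR 0.00014) and Itpr1 was higher with TGF-β+2APB than with DMSO (1.65, FDR 7.7e-05) or TGF-β (0.73, FDR 0.0069). Homer1, a scaffold that links these receptors to channels, rose with TGF-β (1.157, FDR 0.0204) and TGF-β+2APB (1.72, FDR 0.0037), and Stim1, the calcium sensor of the reticulum, fell from TGF-β to TGF-β+2APB (-0.42, FDR 0.0374).

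Trpv4 (chr5:114622152-114658421, minus strand) codes for a calcium-permeable channel opened by swelling, warmth and lipids. It had normalized counts of 74.7 and 97.1 under DMSO, 142 and 159.8 under TGF-β, and 869 and 842 under TGF-β+2APB. The groups did not overlap, and the libraries with both agents stood far above the other 4. Trpv4 was 9.96-fold higher with TGF-β+2APB than with DMSO, or by 3.32 ± 0.19 on the log2 scale (edgeR FDR 8.8e-05), and 5.67-fold higher than with TGF-β, or by 2.50 ± 0.18 (FDR 0.0031). Both calls held in 16 of 16 alternatives, with log2 fold changes of 3.14 to 3.52 and of 2.42 to 2.59. The smaller rise with TGF-β alone, of 0.81 ± 0.18 (FDR 0.0155), held in 15 of 16 alternatives (FDR from 0.0019 to 0.101) and was lost without DMSO replicate 1 (log2 0.64, FDR 0.101).

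**Figure D2:**
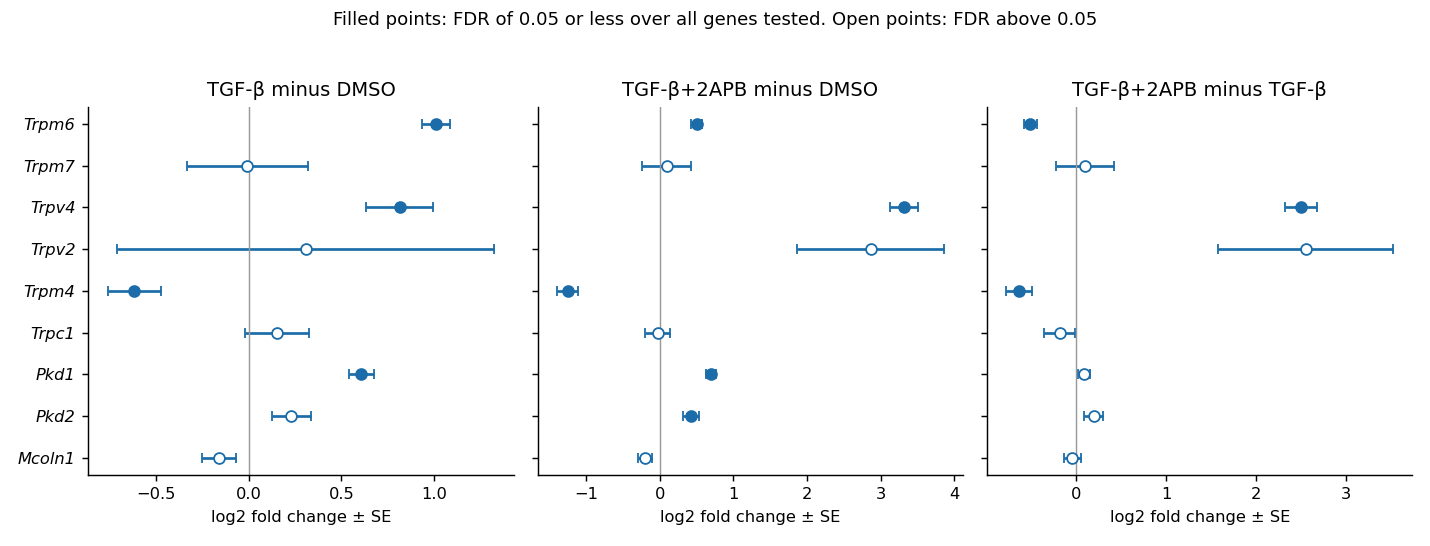
Log2 fold change (horizontal axis, with its own scale in each panel) with its SE for the 9 TRP genes tested, in TGF-β minus DMSO, TGF-β+2APB minus DMSO and TGF-β+2APB minus TGF-β. Filled points have an edgeR FDR of 0.05 or less, and Trpv4 reached 3.32 and 2.50 in the panels with 2APB, whereas the bars of Trpv2 were wide.

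Trpv2 (chr11:62574486-62600515, plus strand) codes for a calcium-permeable channel that is abundant in macrophages and that 2APB can open. Its normalized counts were 15.7 and 10.3 under DMSO, 11.7 and 20.8 under TGF-β, and 21.8 and 169.7 under TGF-β+2APB. A single library, TGF-β+2APB replicate 2, stood apart, and Trpv2 reached the mean count needed for a test only through it. The log2 fold change was 2.86 ± 0.99 for TGF-β+2APB against DMSO (edgeR FDR 0.0554), 2.56 ± 0.97 against TGF-β (FDR 0.133) and 0.31 for TGF-β against DMSO (FDR 0.832), none of them called. Against DMSO, 4 of 15 alternatives gave a call (FDR from 0.0027 to 0.219), the lowest FDR without TGF-β+2APB replicate 1 (log2 3.68), and against TGF-β the same omission gave the call in 1 of 15 (log2 3.36, FDR 0.0184, range to 0.250). Without TGF-β+2APB replicate 2 the gene was not tested.

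Markers of immune cells were high in the same library. The summed normalized count of the 3 markers was 629 and 481 under DMSO, 335 and 245 under TGF-β, and 323 and 2330 under TGF-β+2APB, with Cd68 the most abundant over the 6 libraries together, and all 3 were detected in every library. In TGF-β+2APB replicate 2, Ptprc stood at 742, Cd68 at 619.5 and Csf1r at 969, where replicate 1 had 35.6, 119 and 168. Other genes of the lists that stood out there, named after their values were seen, were Mcoln2 with 24 counts against 0 in replicate 1, Plcb2 with 132 against 0, and P2rx7 with 68 against 4. The part of this library's immune marker level in the Trpv2 value was not tested. Trpv4, in contrast, had 869 and 842 in the 2 libraries of this group, and leaving out replicate 2 kept its call.

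**Figure D3:**
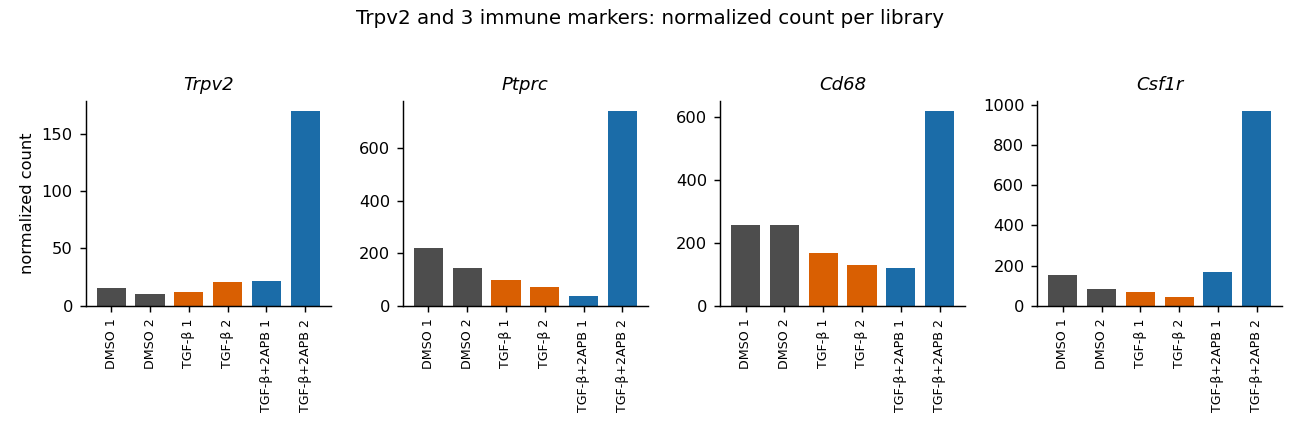
Normalized counts (vertical axes from 0) of Trpv2 and of the immune markers Ptprc, Cd68 and Csf1r in each of the 6 libraries, with 1 bar per library. TGF-β+2APB replicate 2 was the highest library for all 4 genes, with 169.7 for Trpv2 against 10.3 to 21.8 in the other 5.

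Trpv6 (chr6:41620624-41636405, minus strand) codes for the highly calcium-selective channel of transcellular calcium uptake. It had 0 counts in both DMSO libraries, 0 and 2 under TGF-β, and 0 and 4 under TGF-β+2APB. Every library was at or near 0, so Trpv6 was not tested, and no difference was detectable at this depth. On halved counts, a 0 allows up to 3 in a library, or 6 deposited counts, which covers counting error only.

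Of 12 genes of transcellular calcium transport, 11 were in the table and 8 were tested. Relative to DMSO, 2 rose and 2 fell with TGF-β and 2 rose and 3 fell with TGF-β+2APB, and relative to TGF-β 1 rose and 2 fell, with medians of -0.08, -0.36 and 0.06. The share called among all genes was 41.5%, 52.8% and 17.5%. The calcium buffer S100g, which works with TRPV channels in the intestine, fell from 138 and 178 deposited counts to 6 and 6 with TGF-β (log2 -4.70 ± 0.55, edgeR FDR 0.0017) and to 4 and 12 with TGF-β+2APB (-4.32 ± 0.54, FDR 0.0014). It reached the mean count needed for a test only through the DMSO libraries, and without this filter both calls remained (FDR 0.0023 and 0.0018). The plasma membrane calcium pumps moved apart. Atp2b1 fell with TGF-β (-1.11, FDR 0.0072), with TGF-β+2APB against DMSO (-1.90, FDR 0.00075) and between them (-0.79, FDR 0.0458). Atp2b4 rose in the same comparisons, by 0.46 (FDR 0.0221), 1.24 (FDR 0.00044) and 0.78 (FDR 0.0112). S100a10, a partner of TRPV channels at the membrane, fell from TGF-β to TGF-β+2APB (-0.68, FDR 0.0110).

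A list of 10 mechanosensitive, purinergic and other calcium-permeable channels outside the TRP family had 8 tested genes. Relative to DMSO, 3 rose and 1 fell with TGF-β and 3 rose and 3 fell with TGF-β+2APB, and relative to TGF-β the 4 genes called all fell, with medians of -0.07, 0.03 and -0.49. Calls were made for 41.5%, 52.8% and 17.5% of all genes. The stretch-gated channel Piezo2 went from 2 and 2 counts under DMSO to 190 and 222 under TGF-β and 66 and 60 under TGF-β+2APB. Because every count in the table was even, the ratio was also taken on halved counts, and Piezo2 was then 103 times higher with TGF-β than with DMSO (95% exact counting interval 28.1 to 854) and 30.9 times higher with TGF-β+2APB (8.21 to 261), where the intervals leave out the spread between libraries. It fell by 1.74 ± 0.26 from TGF-β to TGF-β+2APB (log2, edgeR FDR 0.0119). Piezo1 rose with TGF-β (1.24, FDR 0.00028) and with TGF-β+2APB against DMSO (1.26, FDR 0.00016). The ATP-gated channel P2rx4 fell in these comparisons (-1.70, FDR 0.00039, and -2.43, FDR 8.4e-05). Tmem63a (-1.11, FDR 0.0180) and Cacna1h (-0.81, FDR 0.0049) fell from TGF-β to TGF-β+2APB, so that Trpv4 moved opposite to all 4 genes of this list called in this comparison. DESeq2 called 5 of the 8 there. P2rx7 was not called by edgeR (log2 3.51, FDR 0.129). It had 4 and 68 counts in the TGF-β+2APB libraries, the 68 in the library with high immune markers. Its mean normalized count over the DMSO and TGF-β libraries was 13.6, under the 20 needed for a test. Its direction is therefore not relied on here.

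Pkd1 and Pkd2 code for the polycystins, a large receptor-like protein and a cation channel that form a complex at the primary cilium. Pkd1 (chr17:24549834-24596508, plus strand) had normalized counts of 10547 and 10363 under DMSO, 16456 and 15414 under TGF-β, and 16759 and 17015 under TGF-β+2APB. Both treated groups lay above DMSO without overlap and close to each other. Pkd1 rose by 0.61 ± 0.07 on the log2 scale with TGF-β (edgeR FDR 0.0015) and was 0.69 ± 0.07 above DMSO with TGF-β+2APB (FDR 0.00060), and both calls held in 16 of 16 alternatives. From TGF-β to TGF-β+2APB the log2 fold change was 0.08 ± 0.07 (FDR 0.444) and was called in 0 of 16 alternatives. Of the 17415 exon bases of Pkd1, 693 are shared with Tsc2 on the opposite strand. The strand setting of the counting is not given in the sources used here, so reads of these bases may belong to either gene. Tsc2 moved the other way, by -0.54 with TGF-β (FDR 0.0032) and -0.90 with TGF-β+2APB (FDR 0.00035).

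Pkd2 (chr5:104459450-104505819, plus strand) had normalized counts of 9902 and 10380 under DMSO, 10813 and 12988 under TGF-β, and 14027 and 13209 under TGF-β+2APB. The groups did not overlap, although the TGF-β libraries were spread widely. Pkd2 was higher with TGF-β+2APB than with DMSO by 0.43 ± 0.11 on the log2 scale (edgeR FDR 0.0183), a call kept in 13 of 16 alternatives (FDR from 0.0012 to 0.124). It was lost without DMSO replicate 1 (FDR 0.124), DMSO replicate 2 (FDR 0.087) or TGF-β+2APB replicate 1 (FDR 0.096). The log2 fold change was 0.23 ± 0.11 for TGF-β against DMSO (FDR 0.136, with a range of 0.0115, without TGF-β replicate 1, to 0.437) and 0.19 ± 0.11 for TGF-β+2APB against TGF-β (FDR 0.258, with a range of 0.0156, without TGF-β replicate 2, to 0.717), neither of them called.

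Of 14 genes of the polycystin group and the primary cilium, 13 were in the table and 12 were tested. With TGF-β 1 rose and 1 fell, with TGF-β+2APB 2 rose and 4 fell relative to DMSO, and the 2 genes called relative to TGF-β fell, with medians of -0.09, -0.12 and -0.12. All genes tested had 41.5%, 52.8% and 17.5% called. For TGF-β against DMSO, DESeq2 called 4 of the 12 where edgeR called 2. Pkhd1, the fibrocystin gene of the cilium, rose with Pkd1, from 4608 and 4310 deposited counts with DMSO to 13048 and 13640 with TGF-β (log2 1.58 ± 0.08, edgeR FDR 0.00013) and 15348 and 14728 with TGF-β+2APB (1.73 ± 0.08, FDR 6.0e-05). Pkd1l3 was higher with TGF-β+2APB than with DMSO (1.20, FDR 0.0101). Nek8 (-0.61, FDR 0.0108) and Bicc1 (-0.30, FDR 0.0259) fell from TGF-β to TGF-β+2APB.

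Mcoln1 (chr8:3500457-3515232, plus strand) codes for the lysosomal calcium channel mucolipin. Its normalized counts were 4200.3 and 4010.1 under DMSO, 3960.1 and 3395 under TGF-β, and 3595 and 3541.5 under TGF-β+2APB. Both treated groups lay below DMSO without overlap, but no change was called. The log2 fold change was -0.16 ± 0.09 for TGF-β against DMSO (edgeR FDR 0.222), -0.20 ± 0.09 for TGF-β+2APB against DMSO (FDR 0.117) and -0.04 ± 0.09 for TGF-β+2APB against TGF-β (FDR 0.777). TGF-β against DMSO was called in 1 of 16 alternatives, without TGF-β replicate 1 (-0.27, FDR 0.0122, range to 0.575). TGF-β+2APB against DMSO was called in 4 of 16 (FDR from 0.0096 to 0.416), which included those without TGF-β replicate 1 (FDR 0.0125) and without TGF-β replicate 2 (FDR 0.0096).

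Other endolysosomal channels and their regulators, 12 genes, were all tested. For TGF-β against DMSO the edgeR test called 0 of them, 2 had an unadjusted p under 0.05 and DESeq2 called 1. With TGF-β+2APB 1 rose and 6 fell relative to DMSO, and the 2 genes called relative to TGF-β fell. The medians were -0.02, -0.18 and -0.08, and 41.5%, 52.8% and 17.5% of all genes were called. Tpcn1, a sodium and calcium channel of endosomes, had deposited counts of 9278 and 8900 under DMSO, 7880 and 6136 under TGF-β, and 3340 and 4314 under TGF-β+2APB, and was lower with TGF-β+2APB than with DMSO (log2 -1.28 ± 0.15, edgeR FDR 0.0011) or TGF-β (-0.89 ± 0.15, FDR 0.0165). The lysosomal regulators Mitf (-1.55, FDR 0.0430) and Tfeb (-0.92, FDR 0.0046) fell with TGF-β+2APB against DMSO, although the 2 libraries of Mitf lay apart at 50 and 148 counts, and the lysosomal potassium channel Tmem175 fell from TGF-β to TGF-β+2APB (-0.39, FDR 0.0308).

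Levels were set in order on the scale of normalized counts per kilobase of merged exons, as mean ± SD of 2 libraries. With DMSO, Trpm7 had the highest level, 1241 ± 27.1, followed by Pkd2 at 997 ± 33.2, Pkd1 at 600.4 ± 7.46 and Mcoln1 at 543 ± 17.8. Trpm6 at 193 ± 4.59, Trpm4 at 129 ± 2.43, Trpc1 at 63.8 ± 1.89, Trpv4 at 21.1 ± 3.89, Trpv2 at 2.90 ± 0.85 and Trpv6 at 0 followed. No neighbours in this order overlapped with DMSO on this scale. With TGF-β the order of group means was kept, but Trpm7 at 1236 ± 630.2 overlapped Pkd2 at 1170.3 ± 151 and Pkd1 at 915 ± 42.3, and Trpm4 at 84.0 ± 16.1 overlapped Trpc1 at 70.9 ± 15.2. With TGF-β+2APB, Pkd2 at 1339 ± 56.9 overlapped Trpm7 at 1324 ± 80.3, Trpv4 moved up to the sixth place at 209.96 ± 4.63 and Trpm4, at 54.1 ± 0.26, below Trpc1. Per kilobase of the longest transcript, Mcoln1 at 1421 ± 46.5 stood above Pkd1 at 738 ± 9.17 with DMSO and Trpm4 at 323 ± 6.10 above Trpm6 at 229 ± 5.44, and with TGF-β+2APB Trpm4 at 135.8 ± 0.66 stood above Trpc1 at 110 ± 7.63, so these pairs have no firm order. Per kilobase of the longest transcript Trpm7 at 1976 ± 43.2 and Pkd2 at 1943 ± 64.7 overlapped with DMSO and Pkd2 had the higher mean with TGF-β, so the first place is not firm either.

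**Figure D4:**
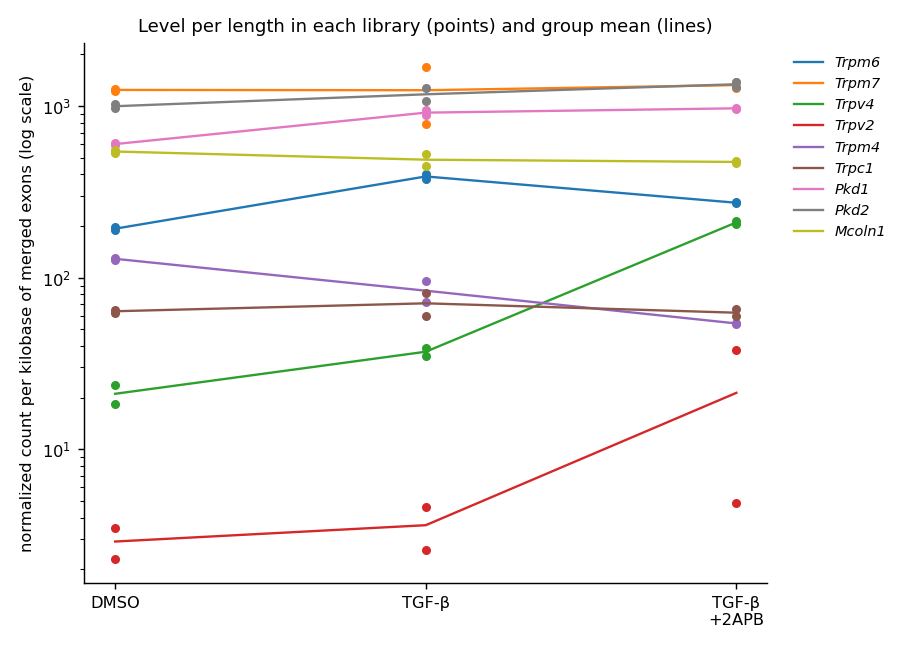
Normalized count per kilobase of merged exons (vertical axis, log scale) of 9 TRP genes in the 3 groups, with 1 point per library and lines through the group means. Trpv4 crossed Trpm4 and Trpc1 with TGF-β+2APB, at 209.96 against 54.1 and 62.5, and Trpv6 is left out because it was at 0 in 4 of 6 libraries.

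The wider family was covered by 29 symbols, of which 25 were in the table and 15 tested, the 9 above and 6 others. Of these 6, 4 rose with TGF-β, 3 rose and 1 fell with TGF-β+2APB relative to DMSO, and 1 rose and 1 fell relative to TGF-β. Over all genes tested, 41.5%, 52.8% and 17.5% were called in these comparisons. The counts of the 6 include Trpa1 and Trpm5, which passed the filter only through 1 group, and calls of Trpm5 that were lost without this filter, as given below. The irritant receptor Trpa1 had 12 and 14 counts under DMSO, 68 and 52 under TGF-β, and 6 and 8 under TGF-β+2APB. It rose with TGF-β alone by 2.19 ± 0.36 (log2, edgeR FDR 0.0057, called in 12 of 13 alternatives) and fell by 3.10 ± 0.39 when 2APB was added (FDR 0.0077, 13 of 13). It reached the mean count needed for a test only through the TGF-β libraries, and without this filter both calls remained (FDR 0.0090 and 0.0115). Against DMSO, TGF-β+2APB gave -0.91 (FDR 0.108). Trpm3 had 66 and 48, 130 and 152, and 136 and 134 counts in DMSO, TGF-β and TGF-β+2APB, and rose by 1.31 (FDR 0.0115) and 1.22 (FDR 0.0111) over DMSO, each in 15 of 16 alternatives. Of its 24437 exon bases, 277 are shared with Gm27151 and 351 with C330002G04Rik, both on the opposite strand, so reads of these bases may belong to either strand.

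Trpm5, the sodium channel of taste cells and the closest relative of Trpm4, had 2 and 0 counts under DMSO, 16 and 6 under TGF-β, and 96 and 86 under TGF-β+2APB. On halved counts the ratio to DMSO was 10.97 with TGF-β (95% exact counting interval 1.59 to 472) and 89.3 with TGF-β+2APB (15.6 to 3565), where the intervals cover counting error only. Trpm5 reached the mean count needed for a test only through the TGF-β+2APB libraries. Its calls for TGF-β against DMSO and for TGF-β+2APB against TGF-β, counted above, were lost without this filter (edgeR FDR 0.0520 and 0.0502) and are not relied on here. It thus moved opposite to Trpm4 in count, from a very low level. Of its 6398 exon bases, 220 are shared with Tssc4 on the opposite strand, which was not called in any comparison (FDR 0.210, 0.800 and 0.367). Pkd2l2 had 726 and 694, 432 and 606, and 354 and 416 counts and was lower with TGF-β+2APB than with DMSO (-0.91, FDR 0.0145, called in 13 of 16 alternatives). It shares 631 of 5804 exon bases with Fam13b on the opposite strand, which fell as well (-1.05, FDR 0.0016), so this change may lie in reads of either gene. Trpc6, at 26 to 52 counts, was not called in any comparison (FDR 0.283 or more in every alternative of TGF-β+2APB against DMSO).

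The other 9 symbols in the table were too low for a test. Trpm2 had 22 and 36 counts under DMSO, 12 and 10 under TGF-β, and 4 and 10 under TGF-β+2APB, and Trpv3 had 22 and 24, 8 and 2, and 2 and 4. Both were highest in the DMSO libraries. On halved counts Trpv3 with TGF-β+2APB was at 0.13 of its DMSO level (95% exact counting interval 0.025 to 0.42, for counting error only). Trpm1 had 6 and 20, 4 and 2, and 2 and 2 counts, with the DMSO libraries far apart. Mcoln2 had 2 and 2 counts under DMSO, 0 and 0 under TGF-β, and 0 and 24 under TGF-β+2APB, all of the last in the library with high immune markers. Mcoln3, Trpm8, Trpc5, Trpc7 and Trpv5 had fewer than 5 counts in every library. Trpc2, Trpc4, Trpv1 and Pkd2l1 were not among the entries.

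Trpv4 had the widest range of group means among the 9 genes, 3.32 on the log2 scale. The genes whose log2 normalized counts were most like it over the 6 libraries were Tctn3 (Pearson r = 0.998), Ndufaf2 (r = 0.998) and D030028A08Rik (r = 0.997). Tctn3 had normalized counts of 1049.6 and 1111.5 under DMSO, 1209.7 and 1230.6 under TGF-β, and 1724 and 1659 under TGF-β+2APB, so it followed the order of Trpv4 with a far smaller range. These r values describe 3 pairs of libraries and were chosen as the highest of all genes tested.

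Promoter windows of 300 bases, from 250 before to 50 after the RefSeq gene start, were taken from RefSeq (GRCm38.p6) for 9 of the 10 genes, with Trpm4 not matched. The E-box CAGGTG, the letters bound by the SNAI and ZEB repressors of epithelial genes, was searched on both strands (CACCTG). It was found in 4 of the 9 genes, in 6 of their 11 windows, and in 22.3% of the 13308 genes of the table with a window (19.5% of 16612 windows). Trpm6 held it at 190 and at 57 bases before its RefSeq start, which lies at chr19:18749730 and so 253 bases before the start of Trpm6 given above, Trpv4 at 67, Trpc1 at 141 and Trpv2 in each of 3 windows, 2 of which overlap and hold the same match, whereas no match lay in the windows of Trpm7, Trpv6, Pkd1, Pkd2 and Mcoln1. The matches of Trpm6 and Trpv4, the genes with the largest changes called among those with a window, are shown with 12 bases on each side, 5′ to 3′ on the strand of the gene, with the E-box in capitals. They lie at chr19:18749528-18749557 and chr19:18749661-18749690 (plus strand) and at chr5:114658471-114658500 (minus strand).
Trpm6, 190 bases before the RefSeq start: agcgtccatgtgCAGGTGgagcccagattg
Trpm6, 57 bases before the RefSeq start: ggcccagggcccCAGGTGgcagtgggtgga
Trpv4, 67 bases before the RefSeq start: gaggcaccgagcCAGGTGgcggcgcgcagg
The match describes the letters of these windows only, and binding and its part in the changes were not tested. Trpc1, which was not called in any comparison, held it as well.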

How the data were processed

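RNA of NMuMG cells in 3 groups of 2 libraries was analysed. Per the submitters' notes and the methods of the study, the authors checked 50 bp single-end reads with FastQC 0.11.2, aligned them with TopHat2 2.0.13 and summed them per gene with featureCounts. The labels name the mouse build mm10, the methods a human one. The deposited values are raw counts per gene, and all of them were even, so that a count may not be 1 read. Of the 18512 entries 94.8% matched GENCODE M21 (GRCm38), which gave positions, lengths and GC content.

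Counts were scaled by TMM and tested in edgeR 4.0.16 (R 4.3.3) by the quasi-likelihood F-test, with the 3 groups in 1 model, over 13353 genes whose mean normalized count reached 20, with Benjamini-Hochberg adjustment over these genes. Normalized counts are scaled to the mean effective library size. The SE was derived from the F statistic and the log2 fold change. The test was checked on simulated data for TGF-β against DMSO, where it missed part of the smaller changes. The study calls the replicates biological, but the labels do not say that they are separate cultures, and p-values measure only the spread between these libraries. Alternatives were DESeq2 1.42.0, library size and RLE scaling, no filter, at least 10 counts in every library, a replicate block, only the 4 libraries compared, counts divided by 2 and each library left out. A crossed block and a GC content correction were added after seeing the data.

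The genes and lists were chosen with earlier results of these data known. The 10 genes are given in full, other TRP genes by their counts, and from each list up to 3 called genes per comparison with the largest log2 fold change in size, with the 3 genes most like the TRP gene of widest range. Protein sequences were not used here.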

Additional observations from a re-analysis of the deposited data

How the results depend on the processing

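Over 428 alternative values of single TRP genes, 381 kept their direction and their side of the threshold and 15 changed sign. Of the others, which kept their direction, 14 became called and 18 lost a call. Among the values that changed sign, those of Trpm7 without TGF-β replicate 1, in both comparisons with TGF-β, became called as well. With single libraries left out, where the lone library of a group is assumed to vary like the others, genes with a small difference changed sign. For TGF-β against DMSO the log2 fold change then ranged from -0.65 to 0.44 for Trpm7, from -0.084 to 0.36 for Trpc1 and from -0.16 to 0.67 for Trpv2. For TGF-β+2APB against DMSO it ranged from -0.11 to 0.062 for Trpc1. For TGF-β+2APB against TGF-β it ranged from -0.34 to 0.74 for Trpm7, from -0.38 to 0.056 for Trpc1 and from -0.15 to 0.074 for Mcoln1. Trpm7 between TGF-β and DMSO also turned to 0.012 with only the 4 libraries compared and to 0.17 with the GC content correction, which turned Trpc1 between TGF-β+2APB and DMSO to 0.14 and Mcoln1 between TGF-β+2APB and TGF-β to 0.0022. The cause was not tested.

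Without 1 library at a time, the TRP genes called ranged from 2 to 7 for TGF-β against DMSO, from 4 to 6 for TGF-β+2APB against DMSO and from 1 to 5 for TGF-β+2APB against TGF-β, and all genes called from 2753 to 7641, from 4355 to 9006 and from 834 to 5405. For TGF-β+2APB against TGF-β, all genes called went from 2334 to 3646 with DESeq2 and to 860 with only the 4 libraries compared, where 1 TRP gene was called. With the same choice, TGF-β+2APB against DMSO went from 7044 to 9013 genes called and from 5 to 6 TRP genes. Why the 2 comparisons moved apart was not tested.

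Replicate numbers were shared between groups, but same-numbered libraries did not deviate together (r = 0.15, -0.46 and -0.26 between groups). With the replicate number as a block, 4, 5 and 2 TRP genes were called, Trpm4 losing its call between TGF-β+2APB and TGF-β (FDR 0.0625), and all genes called in that comparison went to 1342. With the block crossed, a choice made after seeing the data, 4, 5 and 3 were called. Depth limits Trpv2, Trpv6 and the low family genes. Scaling by library size moved the median of all genes by at most 0.07 on the log2 scale.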
